A study of Mus musculus with 8 samples.

Results

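A set of 10 genes that mark recruited myeloid cells and the macrophages of fibrotic scars was followed across 8 RNA sequencing samples of Fah-/- mice. They were chosen by name: Itgam, Ly6c2 and Chil3 for monocytes, S100a8 and S100a9 for neutrophils, Trem2, Gpnmb, Cd9 and Lgals3 for lipid-associated and scar macrophages, and Itgax for dendritic cells and macrophages. All 10 were found among the 22504 genes of the deposited table, and 6 of the 10 passed a floor, an FPKM of 1 or more in 4 or more samples. FPKM is fragments scaled by transcript length and by the mapped fragments of a sample, a level per length that allows levels of different genes to be set side by side.

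All mice were of the 129S4 strain and lacked Fah, the last enzyme of tyrosine breakdown, without which toxic intermediates build up in hepatocytes. The drug NTBC blocks their formation, and 7.5 mg/L in the drinking water was the standard supply. In moderate chronic liver injury (MCLI) the mice received 2.5% NTBC, and in severe acute liver injury (SALI) the drug was withdrawn. C 8w was liver after 8 weeks of MCLI (n = 3), C 8w + A 4w was liver after 8 weeks of MCLI and 4 weeks of SALI (n = 3), and C 12w was tissue labelled tumor after 12 weeks of MCLI (n = 2). A healthy liver was not among the samples analysed here, so C 8w served as the reference and is itself an injured liver. Both comparisons with C 8w share its 3 samples. The tissue type differs between C 12w and the other groups together with the treatment, so tissue and treatment cannot be told apart in its comparisons.

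When the liver is injured, circulating monocytes and neutrophils enter it and join the resident macrophages, the Kupffer cells. Monocytes carry the integrin chain Itgam (CD11b) and, in their inflammatory form, Ly6c2. Neutrophils are filled with the calcium-binding proteins S100a8 and S100a9. In scars and around lipid-laden or dying cells, part of the monocyte-derived macrophages take on a state with the lipid receptor Trem2, the glycoprotein Gpnmb, the tetraspanin Cd9 and the galectin Lgals3. Cd9 and Lgals3 are not confined to macrophages, since epithelial cells also make them.

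The stretch of 250 bases before the transcription start was read for all 10 members from RefSeq (GRCm38.p6, a later build than the mm8 named in the submitters' processing notes). The 5 shown are those of the members whose C 8w + A 4w values lay above every C 8w value with a passed test (Cd9, Lgals3 and Chil3) and of the neutrophil pair for contrast. Capitals mark matches, on either strand, to the letters of the GC box (GGGCGG), PU.1 (AGGAAGT), C/EBP (TTGCNNAA), AP-1 (TGANTCA) and the E-box of MiT/TFE factors (CACGTG). No match printed here overlaps another.
Cd9, chr6:125494761-125495010, minus strand: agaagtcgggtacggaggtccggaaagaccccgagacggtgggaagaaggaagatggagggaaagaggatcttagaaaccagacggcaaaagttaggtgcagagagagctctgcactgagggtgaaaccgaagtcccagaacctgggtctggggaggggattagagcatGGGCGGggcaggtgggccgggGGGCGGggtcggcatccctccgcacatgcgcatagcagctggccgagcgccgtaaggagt
Lgals3, chr14:47373610-47373859, plus strand: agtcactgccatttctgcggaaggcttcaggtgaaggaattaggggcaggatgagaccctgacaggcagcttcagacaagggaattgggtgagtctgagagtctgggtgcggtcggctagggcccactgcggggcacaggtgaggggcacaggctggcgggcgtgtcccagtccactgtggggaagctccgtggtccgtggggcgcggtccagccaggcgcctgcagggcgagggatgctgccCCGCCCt
Chil3, chr3:106167565-106167814, minus strand: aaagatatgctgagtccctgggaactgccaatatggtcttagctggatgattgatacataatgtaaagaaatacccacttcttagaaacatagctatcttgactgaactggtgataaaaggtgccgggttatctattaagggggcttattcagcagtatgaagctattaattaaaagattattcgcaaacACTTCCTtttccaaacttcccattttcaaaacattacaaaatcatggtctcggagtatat
S100a8, chr3:90668821-90669070, plus strand: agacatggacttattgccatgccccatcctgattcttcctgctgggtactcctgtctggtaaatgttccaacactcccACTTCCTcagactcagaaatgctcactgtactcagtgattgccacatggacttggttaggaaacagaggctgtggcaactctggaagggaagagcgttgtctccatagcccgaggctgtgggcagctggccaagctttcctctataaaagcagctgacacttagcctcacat
S100a9, chr3:90695722-90695971, minus strand: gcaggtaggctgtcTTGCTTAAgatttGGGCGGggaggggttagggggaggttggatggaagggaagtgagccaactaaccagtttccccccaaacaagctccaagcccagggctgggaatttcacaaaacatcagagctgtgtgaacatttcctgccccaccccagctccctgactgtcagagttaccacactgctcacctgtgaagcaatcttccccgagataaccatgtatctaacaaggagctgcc
Cd9 held 2 GC boxes, and Lgals3 and Itgam held 1 each. This motif occurred in 32.7% of the 32851 RefSeq promoters of this length. Chil3, S100a8 and Ly6c2 held the PU.1 letters, found in 7.69% of promoters, and S100a9 held the C/EBP letters, found in 9.56%, beside a GC box. The AP-1 letters stood before Trem2 and Itgax and in 6.75% of promoters, the E-box (6.02%) stood before none of the 10, and Gpnmb held none of the motifs. These matches are letters in a window and were not tied to any level below.

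Sums of FPKM ran from 324735 to 399342 per sample and 9797 to 10658 genes reached an FPKM of 1. Read counts cannot be had from FPKM, so depth and counting error are unknown. The sample codes of C 8w and C 12w belong to one series and those of C 8w + A 4w to another, so the series and the acute injury cannot be told apart. Albumin (Alb), named after its values were seen, was listed at 0 in all 5 C 8w and C 12w samples and at 12946 to 16949.8 in C 8w + A 4w, whereas the hepatocyte gene Ttr ran from 2579 to 6614 over all 8. Genes that every cell uses split the same way: Gapdh was at 0.0980 to 0.247 in the 5 C 8w and C 12w samples and at 68.2 to 99.9 in C 8w + A 4w, Ppia at 0.408 to 0.533 and at 761.3 to 848.2, and mt-Co1 at 0 and at 11427 to 13819.9. Others were measured in all 8 samples, Eef1a1 at 364.1 to 1467 and Hprt at 81.6 to 287.9, both highest in the 3 C 8w + A 4w samples. These genes too were named after their values were seen, and the part of this split in the folds of C 8w + A 4w was not tested. The members were checked for sequence shared with other genes, in windows of 50 bases of GENCODE M21 transcripts. Trem2, Gpnmb, Lgals3, S100a8 and S100a9 shared 0% of their windows, Cd9 5.67%, Itgax 8.02%, Ly6c2 14.4%, Chil3 26.9% and Itgam 66.3%. The protocol label speaks of retina, whereas the tissue labels, which were used here, say liver or tumor. Crx, Rcvrn and Rpe65 were listed at 0 in all 8 samples. Alb and mt-Co1 were also listed at 0 in 5 samples, so a 0 in this table does not show lack of expression and cannot decide the tissue. C 8w + A 4w sample 2 held the highest leukocyte levels, and the C 12w samples differed from each other, so values without them are given beside the members they move most.

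Of the members above the floor, Cd9 and Lgals3 rose. In C 8w + A 4w against C 8w, 2 of the 6 members above the floor passed the test, both higher, and the other 4 differed by log2 values above 0 that did not pass. Of all 10244 genes tested, 25.3% were called higher and 14.1% lower in the same comparison, so the share of members called is near that of the genes at large and is no result about the members as a group. In C 8w + A 4w against C 12w, Lgals3 passed (1 of 6), with 17.4% of all genes called higher and 15.4% lower. In C 12w against C 8w, Cd9 passed (1 of 6), with 12.2% called higher and 6.98% lower. Over all genes the median log2 fold change was 0.12, 0.01 and 0.12 in these comparisons, and scaling by the median ratio moved it to 0.0050, -0.0026 and 0.0085.

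**Figure D1:**
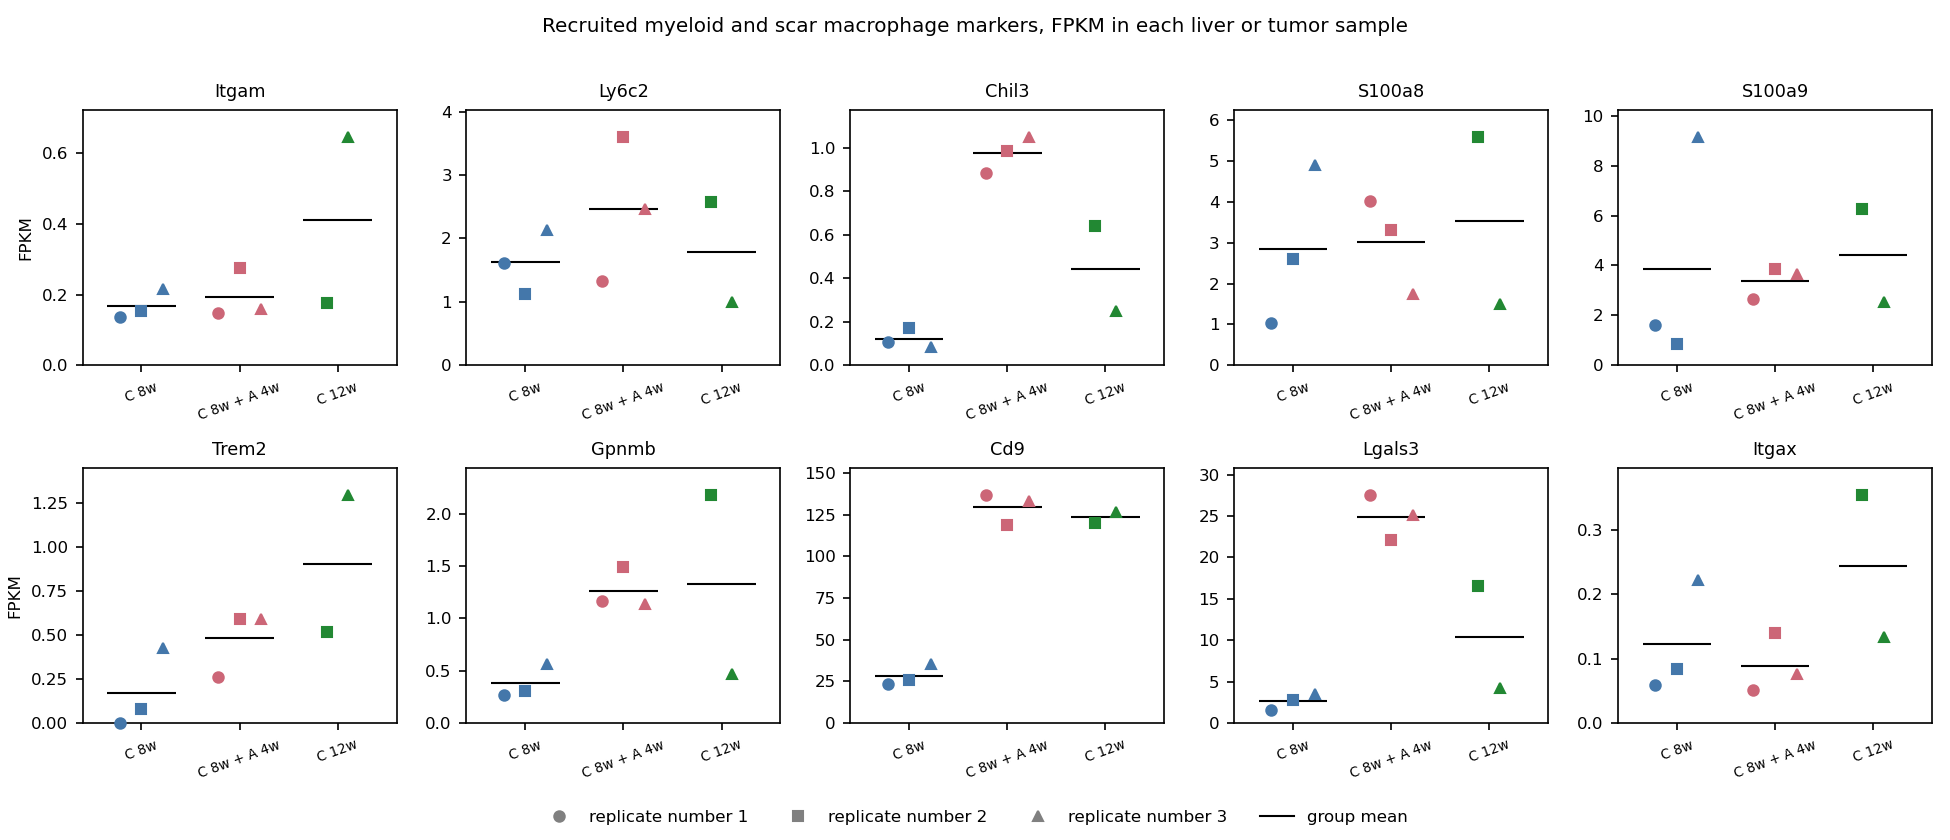
FPKM (y axis, linear, from 0, a scale of its own in each panel) of the 10 members in each sample, by group. Points are samples, shapes are their numbers and lines are group means. Cd9 separated C 8w from both other groups, Lgals3 and Chil3 were highest in C 8w + A 4w, and the neutrophil pair overlapped in all groups.

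Cd9, a tetraspanin that organises integrins and other receptors in the membrane, was the most abundant member in every sample. Its FPKM was 23.6, 25.8 and 35.4 in C 8w samples 1 to 3. C 8w + A 4w had 136.9, 118.8 and 133.1, and C 12w samples 2 and 3 had 120.2 and 126.6. All 5 samples of the later groups stood above all 3 of C 8w, and the ranges of the later groups overlapped. The means were 28.3 ± 6.30 (SD, n = 3), 129.6 ± 9.55 (SD, n = 3) and 123.4 ± 4.52 (SD, n = 2). Cd9 rose 4.58-fold in C 8w + A 4w by these means, a log2 fold change of FPKM + 1 of 2.18 (SE 0.16, limma adjusted p = 2.57e-05). It rose 4.36-fold in C 12w, a log2 fold change of 2.11 (SE 0.18, limma adjusted p = 0.000963). The latter comparison lies within 1 series of sample codes. Between the later groups the log2 difference was 0.07 with a 95% interval from -0.34 to 0.47 (limma adjusted p = 0.797), and it turned to -0.12 when every sample was scaled to the same sum.

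Lgals3 encodes galectin-3, a secreted and intracellular lectin that binds galactosides. Its FPKM was 1.53, 2.83 and 3.49 in C 8w samples 1 to 3. C 8w + A 4w had 27.5, 22.1 and 25.1, and C 12w samples 2 and 3 had 16.6 and 4.20. The groups did not overlap in any comparison, and the C 12w samples lay far apart, sample 2 near C 8w + A 4w and sample 3 just above C 8w. The means were 2.62 ± 0.998 (SD, n = 3), 24.9 ± 2.73 (SD, n = 3) and 10.4 ± 8.74 (SD, n = 2). Lgals3 rose 9.52-fold in C 8w + A 4w against C 8w, a log2 fold change of 2.88 (SE 0.40, limma adjusted p = 0.000938), the largest among the members. Against C 12w the log2 fold change was 1.43 (SE 0.45, limma adjusted p = 0.0399). This call was lost in 6 of the 8 fits that left out 1 sample. Without C 12w sample 2 the difference was 2.31 (adjusted p = 0.000629), without C 12w sample 3 it was 0.56 (adjusted p = 0.176), without C 8w sample 2 or 3 the adjusted p was 0.0634 or 0.0552, and without C 8w + A 4w sample 1, 2 or 3 it was 0.0970, 0.0646 or 0.0928, within a range of 0.000629 to 0.176 over all alternatives. For C 12w against C 8w the log2 difference was 1.44 (SE 0.45, limma adjusted p = 0.0556) and it did not pass. Without C 12w sample 2 it was 0.56, and without sample 3 it was 2.32 (adjusted p = 0.00284, range over alternatives 0.00284 to 0.204).

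Gpnmb, a transmembrane glycoprotein of lysosome-rich macrophages, had an FPKM of 0.273, 0.303 and 0.563 in C 8w and 1.16, 1.49 and 1.13 in C 8w + A 4w. C 12w sample 2 had 2.18 and sample 3 had 0.471. The C 8w + A 4w samples were all above the C 8w samples, while the C 12w samples lay on both sides of C 8w + A 4w. The log2 difference of C 8w + A 4w from C 8w was 0.72 (95% interval 0.14 to 1.30), and the limma adjusted p of 0.0533 missed the threshold. It was 0.00168 without C 12w sample 2, 0.00158 without C 12w sample 3 and 0.0345 with a pseudocount of 0.1, where the difference was 1.55, in a range of 0.00158 to 0.154 over the alternatives. The difference of C 12w from C 8w was 0.65 (limma adjusted p = 0.131), and without C 12w sample 3 it was 1.21 (adjusted p = 0.00411, range over alternatives 0.00411 to 0.675). Between the later groups it was 0.06 (limma adjusted p = 0.887), reaching 0.62 without C 12w sample 2 (adjusted p = 0.0195, range over alternatives 0.0195 to 0.987) and turning to -0.49 without sample 3 and -0.02 with the same sum per sample.

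Trem2, the lipid-sensing receptor that gives this macrophage state its name, stayed at low levels. C 8w sample 1 was listed at 0, and samples 2 and 3 had 0.0831 and 0.427 FPKM. C 8w + A 4w had 0.262, 0.592 and 0.592, and C 12w samples 2 and 3 had 0.515 and 1.30. Both C 12w samples lay above the C 8w samples, and C 8w + A 4w overlapped both groups. Trem2 was below the floor, and in the fit without a floor its log2 difference was 0.69 for C 12w against C 8w (limma adjusted p = 0.102), 0.35 for C 8w + A 4w against C 8w (0.263) and -0.34 for C 8w + A 4w against C 12w (0.338). Without C 12w sample 2 the first was 0.99 (adjusted p = 0.0337, range over alternatives 0.0337 to 0.439). The order of the samples differed between the scar macrophage members: C 12w sample 3 had the most Trem2 and the least Gpnmb and Lgals3 of the 5 later samples.

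**Figure D2:**
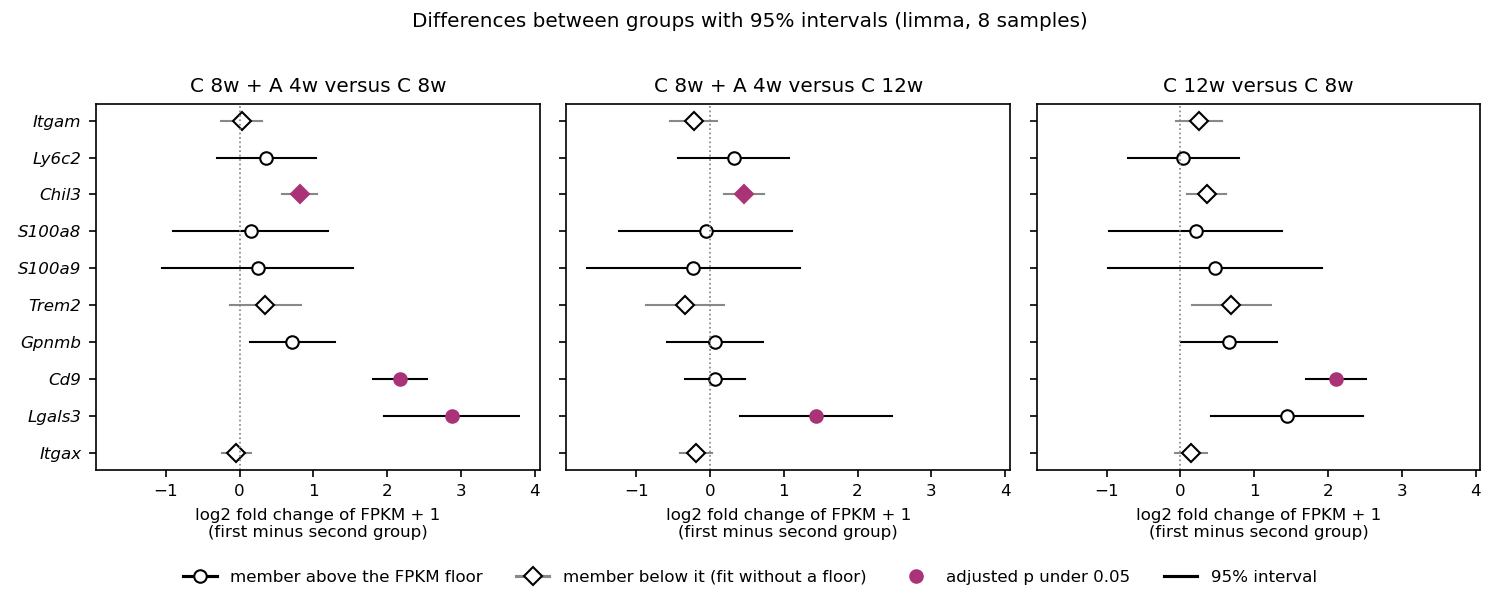
Log2 fold change of FPKM + 1 (x axis, log scale, the same in all 3 panels) for each member, first group minus second, with 95% intervals from limma. Filled points passed an adjusted p of 0.05, and diamonds are members below the floor, taken from the fit without one. Cd9 stood at 2.18 and 2.11 against C 8w and at 0.07 between the later groups, and Lgals3 stood at 2.88, 1.43 and 1.44.

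Of the monocyte members, Chil3 (Ym1), a chitinase-like protein of alternatively activated macrophages and some immature myeloid cells, had the clearest difference. Its FPKM was 0.106, 0.172 and 0.0831 in C 8w. The C 8w + A 4w samples had 0.885, 0.986 and 1.05, and C 12w samples 2 and 3 had 0.640 and 0.248. No groups overlapped, but every level was near or under the floor of 1, so the fit without a floor gave its values. There Chil3 rose in C 8w + A 4w against C 8w by a log2 fold change of 0.82 (SE 0.10, limma adjusted p = 0.00199), with means of 0.973 ± 0.0825 (SD, n = 3) and 0.1203 ± 0.0459 (SD, n = 3). The ratio of these means was 8.09, and with a pseudocount of 0.1 the log2 fold change was 2.30, since a pseudocount of 1 understates changes at such levels. Of the 17762 genes in that fit 16.3% were called higher. Against C 12w the log2 fold change was 0.46 (SE 0.11, limma adjusted p = 0.0286, with 11.9% of genes called higher), and the call was lost in 7 of the 8 fits that left out 1 sample. The adjusted p was 0.0587, 0.0547 and 0.0564 without C 8w sample 1, 2 or 3, 0.0556, 0.0661 and 0.0817 without C 8w + A 4w sample 1, 2 or 3, and 0.0517 without C 12w sample 3, within 0.00210 to 0.126 over all alternatives. C 12w differed from C 8w by 0.35 (adjusted p = 0.0965, with 6.53% of genes called higher), and by 0.55 without C 12w sample 3 (adjusted p = 0.0127, range over alternatives 0.0127 to 0.459). Of the windows of Chil3, 16.9% also occur in Chil4, which was at 0.0369 FPKM or less in every sample, and 13.3% in Gm6522.

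Ly6c2, the surface antigen of inflammatory monocytes, had an FPKM of 1.61, 1.13 and 2.14 in C 8w and 1.33, 3.60 and 2.47 in C 8w + A 4w. C 12w sample 2 had 2.57 and sample 3 had 0.992. The 3 groups overlapped. The log2 difference from C 8w was 0.36 for C 8w + A 4w (95% interval -0.31 to 1.04, limma adjusted p = 0.355) and 0.04 for C 12w (-0.72 to 0.79, limma adjusted p = 0.938), the latter turning to -0.03 with median-ratio scaling. Between the later groups it was 0.32 (limma adjusted p = 0.482). Single samples moved these values: without C 8w + A 4w sample 2 the first was 0.13, and without C 12w sample 2 or 3 the second was -0.38 or 0.46 and the last 0.74 or -0.10, none past the threshold. The close copy Ly6c1, an endothelial marker that shares 32.8% of its own windows, rose in C 8w + A 4w against C 8w by 0.83 (limma adjusted p = 0.0209), and reads from the pair cannot be told apart with certainty.

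Itgam, the alpha chain that pairs with Itgb2 on monocytes, neutrophils and macrophages, was at 0.137, 0.154 and 0.216 FPKM in C 8w and at 0.149, 0.276 and 0.159 in C 8w + A 4w. C 12w sample 2 had 0.176 and sample 3 had 0.646. Only C 12w sample 3 stood out. In the fit without a floor the log2 difference of C 8w + A 4w from C 8w was 0.03 (95% interval -0.25 to 0.31, limma adjusted p = 0.894), and those against C 12w (-0.22, adjusted p = 0.287) and of C 12w from C 8w (0.25, adjusted p = 0.266) did not pass. Without C 12w sample 2 the last 2 differences were -0.46 (adjusted p = 0.00774, range over alternatives 0.00774 to 0.884) and 0.49 (adjusted p = 0.00867, range over alternatives 0.00867 to 1.00), with 1 sample left in C 12w. Of the windows of Itgam, 66.3% also occur in Gm49368, listed at up to 0.126 FPKM, so its level is uncertain. Itgb2 was at 1.60 to 5.39 FPKM, with a log2 difference of -0.0033 of C 8w + A 4w from C 8w (limma adjusted p = 0.994).

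Itgax (CD11c), the alpha chain of dendritic cells and of some macrophages, was the least abundant member by group mean in C 8w + A 4w and C 12w. Its FPKM was 0.0599, 0.0847 and 0.221 in C 8w. The C 8w + A 4w samples had 0.0511, 0.140 and 0.0761, and C 12w samples 2 and 3 had 0.354 and 0.134. The groups overlapped, and the highest value was C 12w sample 2, not the sample with the most Itgam. In the fit without a floor the log2 differences were -0.04, -0.19 and 0.15 (limma adjusted p = 0.767, 0.196 and 0.340) in C 8w + A 4w against C 8w, C 8w + A 4w against C 12w, and C 12w against C 8w.

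The neutrophil members S100a8 and S100a9 form calprotectin, the main protein of the neutrophil cytosol. S100a8 was at 1.04, 2.59 and 4.90 FPKM in C 8w and at 4.02, 3.30 and 1.74 in C 8w + A 4w. It was 5.58 and 1.49 in C 12w samples 2 and 3. S100a9 was at 1.61, 0.870 and 9.15 in C 8w. Its C 8w + A 4w samples had 2.65, 3.85 and 3.65, and those of C 12w had 6.27 and 2.55. Both genes were highest in C 8w sample 3 and C 12w sample 2, and samples of 1 group differed more than the groups did. The log2 difference of C 8w + A 4w from C 8w was 0.15 for S100a8 (95% interval -0.90 to 1.20, limma adjusted p = 0.811) and 0.24 for S100a9 (-1.05 to 1.54, limma adjusted p = 0.756). For S100a9 the mean FPKM differed in the other direction, at 3.38 ± 0.639 (SD, n = 3) against 3.87 ± 4.58 (SD, n = 3) in C 8w. Against C 12w the differences were -0.05 and -0.22 (limma adjusted p = 0.949 and 0.813), and C 12w differed from C 8w by 0.21 and 0.47 (limma adjusted p = 0.790 and 0.618). Single samples turned or moved these values. Against C 8w, S100a8 in C 8w + A 4w was -0.24 without C 8w sample 1 and 0.53 without sample 3, and S100a9 was -0.24 without sample 2 and 0.98 without sample 3 (adjusted p = 0.0525, range over alternatives 0.0525 to 0.998). Without C 12w sample 2 or 3, the difference of C 8w + A 4w from C 12w was 0.65 or -0.76 for S100a8 and 0.29 or -0.74 for S100a9, and that of C 12w from C 8w was -0.49 or 0.91 and -0.05 or 0.99. With intervals this wide, no difference was detectable for either gene with these samples.

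The other genes of each role were read from fixed lists. Of 15 other neutrophil genes 2 were above the floor, the formyl peptide receptors Fpr1 and Fpr2, and neither passed in any comparison by limma, nor reached an unadjusted p under 0.05. Ly6g, the defining neutrophil antigen of the mouse, was at 0.1205, 0 and 0 FPKM in C 8w, at 0.863, 0.235 and 0.186 in C 8w + A 4w, and at 0.125 and 0 in C 12w samples 2 and 3. Csf3r, the G-CSF receptor, was at 0.367 to 0.556 in all 8 samples. The summed FPKM of the 15 genes was 5.51 to 8.71 in C 8w, 7.51 to 16.0 in C 8w + A 4w and 7.76 to 10.1 in C 12w.

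Of 12 other monocyte genes 5 were above the floor. Of these 5, Cd14, the lipopolysaccharide co-receptor, was the 1 that passed. It rose in C 8w + A 4w by a log2 fold change of 1.63 against C 8w (limma adjusted p = 0.00130) and of 1.69 against C 12w (limma adjusted p = 0.00244). Of all genes, 25.3% and 17.4% were called higher in these comparisons, so 1 of 5 is no result about the list. The median log2 fold change of the 5 genes was 0.20, -0.07 and -0.06 in the 3 comparisons, beside 0.12, 0.01 and 0.12 over all genes. Ccr2, the receptor that draws monocytes out of the marrow, was at 0.195 to 0.306 FPKM in C 8w, 0.0691 to 0.397 in C 8w + A 4w, then 0.680 and 1.47 in C 12w, whose samples were the highest of the 8. Csf1r, the receptor for macrophage growth factors, was at 5.68 to 20.3 FPKM and its log2 difference was -0.24 of C 8w + A 4w from C 8w (limma adjusted p = 0.657).

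Of 16 other lipid-associated and scar macrophage genes 13 were above the floor, and the passed ones went both ways. In C 8w + A 4w against C 8w 2 were called higher and 1 lower, beside 25.3% and 14.1% of all genes. Against C 12w it was also 2 and 1, beside 17.4% and 15.4%. In C 12w against C 8w it was 1 and 0, beside 12.2% and 6.98%. These counts are no result about the list as a group. In C 8w + A 4w against C 8w, Cd63 (log2 fold change 4.85) and Fabp5 (1.65) rose and Lpl, a secreted lipase, fell (-0.89), with limma adjusted p of 6.12e-06, 0.00860 and 0.0219. Against C 12w, Cd63 (4.15) and Ctsd (0.75) were higher and Lgals1 (-1.07) was lower, with limma adjusted p of 3.98e-05, 0.0133 and 0.0425. Cd63 and Ctsd share 11.0% and 32.4% of their windows with other genes. In C 12w against C 8w the osteopontin gene Spp1 was called at 3.03 (limma adjusted p = 0.0410), and it was 22.2 FPKM in C 12w sample 2 and 311 in sample 3, against 8.26 to 11.8 in C 8w. The median log2 fold change of the 13 genes was 0.28, -0.14 and 0.33, beside 0.12, 0.01 and 0.12 over all genes. Cd68, a lysosomal protein of macrophages, was at 5.79 to 12.5 FPKM, with a log2 difference of 0.29 of C 8w + A 4w from C 8w (limma adjusted p = 0.376).

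Among the partners of the members, 5 of 8 were above the floor. Icam1, a ligand of the Itgam and Itgax integrins, rose against C 8w in C 8w + A 4w (0.60, limma adjusted p = 0.0256) and in C 12w (1.11, limma adjusted p = 0.00857). This is 1 of 5 in each, beside 25.3% and 12.2% of all genes. Tyrobp, the signalling adaptor of Trem2, was at 2.97 to 9.81 FPKM, with a log2 difference of -0.55 of C 8w + A 4w from C 8w (limma adjusted p = 0.202). The median log2 fold change of the 5 genes was -0.0033, -0.04 and 0.02. The partners Itgb2 and Tyrobp were measured well above the members Itgam and Trem2 in FPKM in every sample. Itgam shares 66.3% of its windows with another gene, so its level in this comparison is uncertain.

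**Figure D3:**
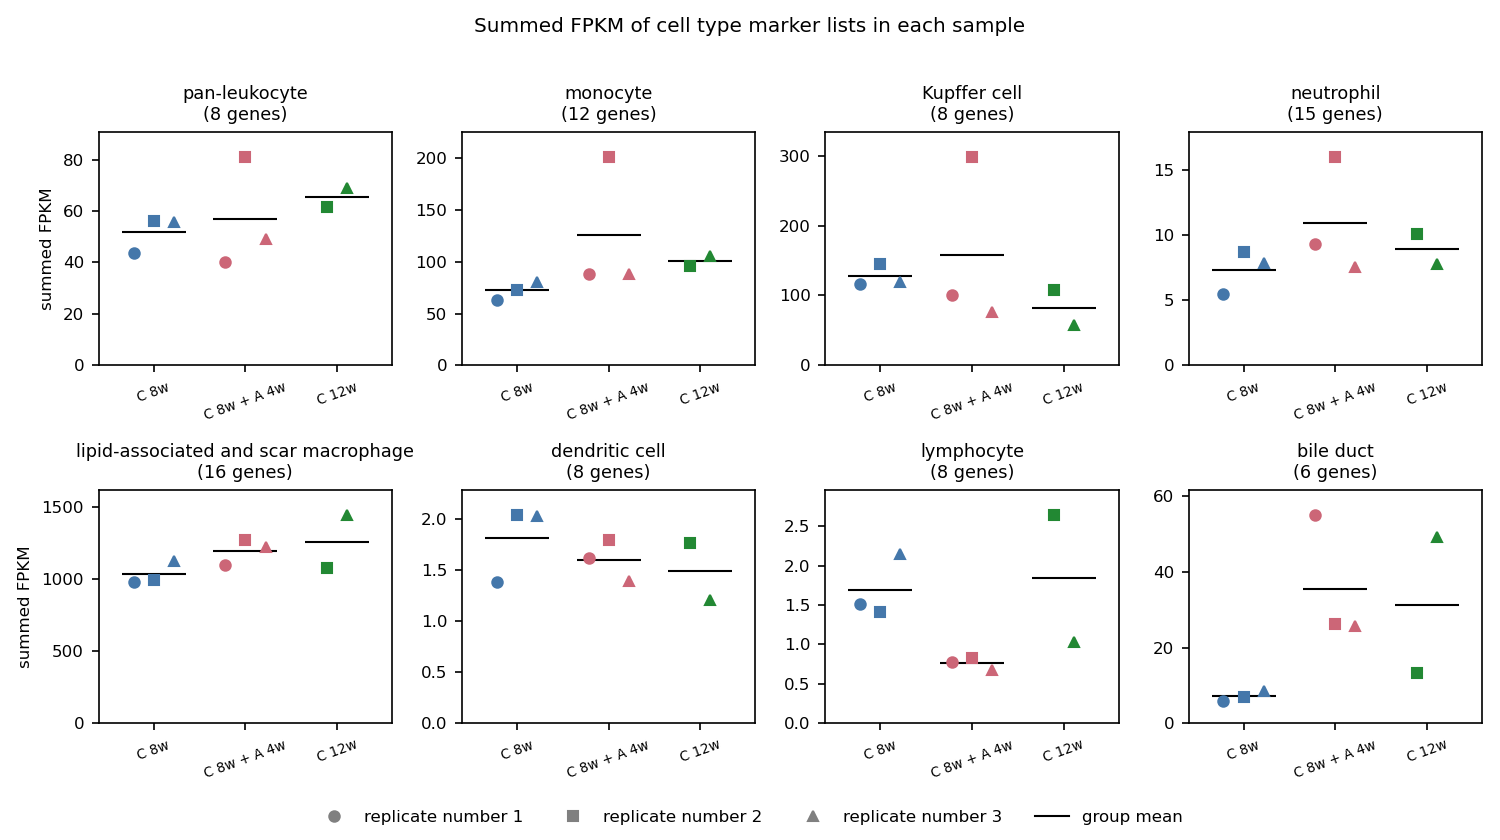
Summed FPKM (y axis, linear, from 0, a scale of its own in each panel) of 8 marker lists in each sample. Points are samples, shapes are their numbers and lines are group means. C 8w + A 4w sample 2 was the highest sample for the pan-leukocyte, monocyte, Kupffer cell and neutrophil lists, and the bile duct list was higher in all 5 later samples than in C 8w.

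RNA of whole tissue was measured, so fewer cells of a type and less RNA per cell cannot be told apart. The 8 pan-leukocyte genes summed to 43.9 to 56.2 FPKM in C 8w, 40.1 to 81.0 in C 8w + A 4w and 61.8 to 68.9 in C 12w, and by limma 0 of the 8 were called higher in any comparison, beside 25.3%, 17.4% and 12.2% of all genes, which over 8 genes is too few to read a result from. At an unadjusted p under 0.05, 1 was higher in C 8w + A 4w against C 8w, 0 against C 12w and 1 in C 12w against C 8w. Fcer1g, an Fc receptor chain, fell in C 8w + A 4w against C 8w (-1.09, limma adjusted p = 0.00273) and, with Coro1a (-0.70, limma adjusted p = 0.0351), was lower than in C 12w (-1.24, limma adjusted p = 0.00309). The median of the list was -0.15, -0.66 and 0.24 in the 3 comparisons. The 8 Kupffer cell genes summed to 117.0 to 145.5 FPKM in C 8w, 76.9 to 298.2 in C 8w + A 4w and 57.4 to 107.6 in C 12w, with medians of -0.08, 0.72 and -0.59. Cd163 alone among them passed, lower in C 12w than in C 8w (-1.13, limma adjusted p = 0.0354), with C 8w + A 4w above C 12w (1.75, limma adjusted p = 0.00346). This is 1 of 8 in each, beside 6.98% of all genes called lower and 17.4% called higher. Clec4f, the defining Kupffer cell lectin, was at 33.2 to 36.7 FPKM in C 8w, 19.5 to 59.1 in C 8w + A 4w and 10.8 to 20.2 in C 12w, with no call.

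C 8w + A 4w sample 2 stood apart with the highest sums of these lists, 201.2 FPKM for monocyte genes against 88.2 and 88.6 in the other C 8w + A 4w samples. It also had the highest Ly6c2 and Itgam of its group, but the lowest Cd9 and Lgals3. Leaving it out gave log2 fold changes of 2.24 for Cd9 (adjusted p = 0.000167) and 2.96 for Lgals3 (adjusted p = 0.00372) against C 8w. The 8 dendritic cell genes (1.21 to 2.04 FPKM in all) and the 8 lymphocyte genes (0.674 to 2.64) held none above the floor, and the lymphocyte sum was lower in all 3 C 8w + A 4w samples (0.674 to 0.829) than in C 8w (1.42 to 2.15).

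**Figure D4:**
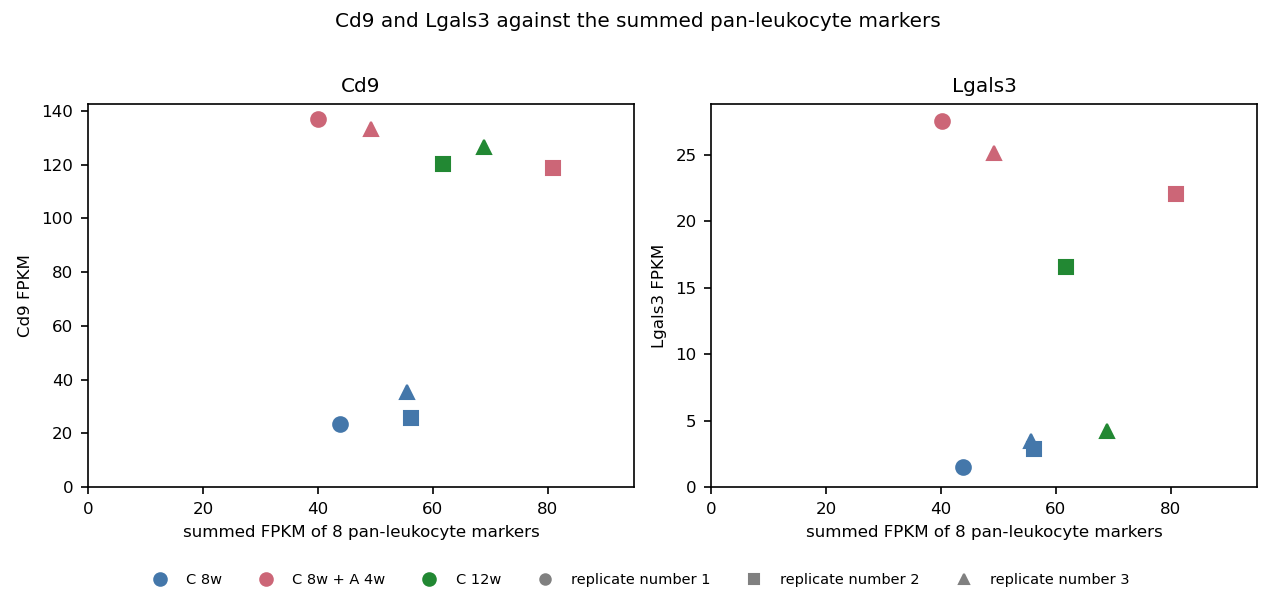
FPKM of Cd9 (left) and Lgals3 (right) on linear y axes against the summed FPKM of 8 pan-leukocyte genes on the x axis, 1 point per sample, coloured by group and shaped by sample number. Cd9 and Lgals3 of C 8w + A 4w lay above C 8w at lower as well as higher leukocyte sums.

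Cd9 and Lgals3 were also set against the pan-leukocyte sum of the same sample. Cd9 per unit of that sum was 0.460 to 0.638 in C 8w, 1.47 to 3.41 in C 8w + A 4w, then 1.95 and 1.84 in C 12w. Lgals3 per unit was 0.0349 to 0.0628 in C 8w and 0.273 to 0.687 in C 8w + A 4w. C 12w samples 2 and 3 had 0.268 and 0.0610. Both ratios of all C 8w + A 4w samples lay above the C 8w range, and the Lgals3 ratio of C 12w sample 3 lay within it. Much of the sum was 1 gene, Lcp1. It made up 19.8 of 43.9 FPKM in C 8w sample 1 and 23.8 of 40.1 in C 8w + A 4w sample 1. For C 8w + A 4w against C 8w, its log2 difference was 0.44 (limma adjusted p = 0.0959) and the list median was -0.15. Since epithelial cells also make Cd9 and Lgals3, these ratios cannot show which cells held the RNA. The part of leukocyte content in both levels was not tested.

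Epithelial genes moved with Cd9 and Lgals3. Of the 6 bile duct genes 5 were above the floor, and they summed to 5.78 to 8.45 FPKM in C 8w, 25.6 to 55.1 in C 8w + A 4w and 13.3 to 49.2 in C 12w. Cd24a (3.33) and Epcam (1.84) rose in C 8w + A 4w against C 8w (limma adjusted p = 0.000457 and 0.00577), Cd24a was higher than in C 12w (1.97, limma adjusted p = 0.0119), and Sox9 (2.44) and Epcam (1.42) rose in C 12w against C 8w (limma adjusted p = 0.0174 and 0.0471). The medians of the list were 0.91, 0.42 and 1.36, and no gene of it was at 0 in all samples. Their part in the levels of Cd9 and Lgals3 was not tested.

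Hepatocyte genes went both ways. Of 8 genes 7 were above the floor, and in C 8w + A 4w against C 8w 1 (Apoa1) was called higher, 3 (Cyp2e1 and Cps1 among them) were called lower and 3 did not pass, beside 25.3% of all genes called higher and 14.1% lower. The median log2 fold change of the 7 was -0.90, -0.75 and 0.15 in the 3 comparisons. Of the 6 endothelial genes, 2 (Lyve1 and Ly6c1) rose and 3 (Stab2 and Clec4g among them) fell in C 8w + A 4w against C 8w, beside 25.3% of all genes called higher and 14.1% lower. In C 12w against C 8w, 3 (Stab2, Kdr and Clec4g) fell, beside 6.98% of all genes called lower. Of the 5 stellate cell genes 4 were above the floor, and 2 of them, Lrat and Dcn, were higher in the C 8w + A 4w livers than in C 12w, beside 17.4% of all genes. Des (0.24) and Pdgfrb (-0.45) did not pass. Col1a1, below the floor, went the other way. It was at 0.0618 to 0.528 FPKM in C 8w + A 4w, 0.749 to 1.46 in C 8w, and 2.97 and 8.29 in C 12w samples 2 and 3. The part of these lists in the members' levels was not tested either.

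The C 12w samples differed from each other in a way that cut across the members. Sample 2 held more Lgals3, Gpnmb, Chil3, S100a8, S100a9, Ly6c2 and Itgax, and sample 3 held more Trem2 and Itgam. Cd9 hardly differed, at 120.2 FPKM in sample 2 and 126.6 in sample 3. Sample 3 also held more Ccr2 and Spp1, and a lower sum of the Kupffer cell genes, of which Adgre1 alone was higher (4.68 against 4.32 FPKM). With 2 samples in the group, no test separates them, and each comparison with C 12w averages over that difference.

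Finally, the genes most alike in pattern over the 8 samples were listed for 1 member of each role, as the smallest root mean square difference of z-scores of log2(FPKM + 1). For Itgam these were Slc25a30 (0.168), Trim35 (0.174) and Rasgrp3 (0.178), which all were highest in C 12w sample 3. For Trem2 they were Ncoa5 (0.285), Ubd (0.304) and Serpinb6b (0.320), also highest in that sample. For S100a8 they included Alyref2 (0.446) and Ebag9 (0.470), a looser likeness.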

How the data were processed

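RNA sequencing of 8 samples in 3 groups was used, with groups taken from the treatment in the sample titles. The deposited table gives FPKM values, which the authors scaled by gene length and mapped fragments. The submitters' processing notes name Bowtie 0.12.2 and mm8. The quantifier and the annotation are not given in the sources used here, and the table held 0 columns of other samples. Symbols were matched by Ensembl identifier for 22314 of 22504 rows.

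The 10244 genes that reached an FPKM of 1 in 4 or more samples were compared as log2(FPKM + 1), which understates the change of low genes, in R 4.3.3 with limma 3.58.1 (lmFit, eBayes with a trend). One fit of all 8 samples was used, with two-sided tests, Benjamini-Hochberg adjustment over all genes kept and a threshold of 0.05. Members under the floor were taken from a fit without one (17762 genes). The labels do not say how far samples of a group are independent, so p-values measure the spread between these samples. C 8w and C 12w share the numbers 2 and 3, but deviations of same-numbered samples did not go together, so they were not paired.

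The members and lists were chosen with earlier results of these data known. All members are named, and of each other list up to 3 genes past the threshold with the largest changes, beside Itgb2, Tyrobp, Ly6c1, Csf1r, Ccr2, Ly6g, Csf3r, Spp1, Cd68 and Clec4f. Alb, Ttr, Gapdh, Ppia, mt-Co1, Eef1a1, Hprt, Fpr1, Fpr2 and the close copies were named after their values were seen. So were Lcp1, Des, Pdgfrb, Col1a1 and the further monocyte and neutrophil genes below the floor. A result for a single gene is left out here. Shared sequence was counted in 50-base windows of GENCODE M21 transcripts on the sense strand with Python 3.11.15.

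The alternatives were a pseudocount of 0.1, no floor or 0.1 in 2 samples, median-ratio scaling, the same sum per sample, each sample left out, eBayes without a trend, 2 groups only, a log2 limit of 1, genes with at most 2% shared windows and a replicate block. A crossed block and the fit without a floor for low members were added after seeing the data.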

Additional observations from a re-analysis of the deposited data

How the results depend on the processing

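Cd9 and Lgals3 kept their calls in C 8w + A 4w against C 8w, and Cd9 in C 12w against C 8w, under the alternatives in which they were tested, except that Cd9 lost the latter with the crossed replicate block. Cd9 has 5.67% shared windows and is not tested with at most 2% shared windows, which leaves 1 member called in C 8w + A 4w against C 8w and 0 in C 12w against C 8w. In C 8w + A 4w against C 8w, 3 members were called with a pseudocount of 0.1 or 2 groups only, where Gpnmb passed (adjusted p = 0.0345 and 0.00164), and without a floor or with a floor of 0.1 in 2 samples, where Chil3 enters. The count of 1 in C 8w + A 4w against C 12w became 0 with a pseudocount of 0.1, median-ratio scaling or 2 groups only (Lgals3 adjusted p = 0.0510, 0.0515 and 0.0821) and 2 with a floor of 0.1 in 2 samples, where Chil3 enters. Without a floor it stayed 1, but Lgals3 lost its call (adjusted p = 0.0860) and Chil3 was the member called. In C 12w against C 8w it became 2 with the same sum per sample, where Lgals3 passed (adjusted p = 0.0374). Leaving out 1 sample gave 2 to 3, 0 to 2 and 1 to 3 members called. Over all genes, 4034, 3356 and 1962 were called in C 8w + A 4w against C 8w, C 8w + A 4w against C 12w and C 12w against C 8w. A log2 limit of 1 left 1128, 1177 and 533, and fitting 2 groups only left 1996 in the second. Leaving out 1 sample gave 2469 to 5189, 2494 to 4214 and 677 to 3702, with 2469 in the first without C 8w sample 1, and in the third 677, 941 and 720 without C 8w sample 1, 2 or 3 and 3702 without C 12w sample 2. Of the genes called, 64.2%, 53.1% and 63.6% were higher, against 49.4%, 50.5% and 47.4% with median-ratio scaling and 53.5%, 35.9% and 72.2% with the same sum per sample. The causes were not tested.

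For C 12w against C 8w, a replicate block on the numbers 2 and 3 left 252 genes and 1 member (Cd9, adjusted p = 0.0120) called. The deviations of same-numbered samples had a correlation of -0.19 over 10244 genes, and the crossed pairing left 16 genes and 0 members. The block turned S100a8 to -0.18 and changed no other member's call.

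No member's called difference changed sign. Among the uncalled ones, the same sum per sample turned Gpnmb (-0.020) and Cd9 (-0.12) in C 8w + A 4w against C 12w, and median-ratio scaling turned Ly6c2 (-0.034) in C 12w against C 8w. Leaving out 1 sample turned others. In C 8w + A 4w against C 8w the ranges were -0.24 to 0.53 for S100a8, -0.24 to 0.98 for S100a9, -0.081 to 0.022 for Itgax and -0.018 to 0.059 for Itgam. Against C 12w they were -0.49 to 0.62 for Gpnmb, -0.76 to 0.65 for S100a8, -0.74 to 0.29 for S100a9, -0.10 to 0.74 for Ly6c2 and -0.46 to 0.021 for Itgam. In C 12w against C 8w they were -0.38 to 0.46 for Ly6c2, -0.49 to 0.91 for S100a8 and -0.050 to 1.20 for S100a9. Where C 12w keeps 1 sample, that sample is assumed to vary like the other groups. Low members are limited by an unknown read depth.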
